A study of Danio rerio with 6 samples.

Results

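The 6 genes described here encode parts of the cardiac myosin motor and its light chain kinases, and were taken by symbol from the 31701 genes of the deposited table. They are the light chains *myl7* (ENSDARG00000019096) and *cmlc1* (ENSDARG00000032976), the heavy chains *vmhc* (ENSDARG00000079564) and *myh6* (ENSDARG00000090637), and the kinases *mylk2* (ENSDARG00000031698) and *mylk3* (ENSDARG00000076348). All 6 had 1 row each and passed the filter on low counts, with at least 916 counts in every library. RNA was sequenced from the apical ventricle of adult AB zebrafish, 7 days after amputation of the ventricular apex. The tbx20-overexpressing fish carried *cmlc2:TetON-3G*, a cardiomyocyte driver with a lens marker, and *TRE3G:tbx20-E2A-mCherry*, a doxycycline-responsive *tbx20* transgene with its own lens marker. Control fish carried the *TRE3G:tbx20* responder without the driver, and both groups were bathed daily in doxycycline from the day before injury. Each group had 3 libraries, which pooled the apices of 6, 8 and 8 hearts for replicates 1, 2 and 3. The study calls the replicates biological, while the labels give only the pooled hearts, so the p-values measure the spread between these pools. The driver was built to act in cardiomyocytes, and its promoter is that of *myl7*, a gene described here.

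The sarcomere's thick filament is built of myosin, whose heavy chains hold the motor and the rod, and whose lever arm is wrapped by an essential and a regulatory light chain. In the zebrafish heart *vmhc* marks the ventricle and *myh6* (also *amhc*) the atrium, while *myl7* (also *cmlc2*, the source of the promoter used in the driver) encodes the regulatory and *cmlc1* the essential light chain of both chambers. Calcium-bound calmodulin activates myosin light chain kinases, which phosphorylate the regulatory light chain. In mammals MYLK3 is the cardiac kinase and MYLK2 the skeletal muscle kinase.

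The study listed primers for *mylk3* outside the sequencing, and they are shown as the sequences it gives under the name of this kinase. Their match to the *mylk3* transcript was not checked here. They are printed in lower case, first for qPCR and then for the in situ probe, with each pair in the order of the supplementary list.
mylk3 qPCR, first primer: tcggactacattcgcaaattc
mylk3 qPCR, second primer: ctgctgtgaagtctgtgtgct
mylk3 probe, first primer: taccttgttgcacaccgtca
mylk3 probe, second primer: gatgctgtctacgcaagcac

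Total counts ranged from 12993988 to 14002211 in tbx20-overexpressing and from 13218054 to 17754483 in control libraries. Mitochondrially encoded genes took 11.1 to 15.0% of the counts in tbx20-overexpressing and 16.3 to 20.9% in control libraries. The *tbx20* levels of the groups overlapped, at 133, 19.0 and 37.2 CPM (TMM-normalized counts scaled to a common library size, replicates 1, 2 and 3) in tbx20-overexpressing and 41.3, 8.59 and 20.3 CPM in control libraries, although it was higher in 3 of 3 replicate pairs. The pairs were formed by replicate number, and the labels do not state a pairing. Its log2 fold change was 1.43 ± 0.75 (SE, adjusted p of 0.649 in edgeR) in the unpaired fit, and 1.24 ± 0.19 (adjusted p of 0.0479 in edgeR) with the replicate number as a block. Whole tissue was sequenced, so that fewer cardiomyocytes and less RNA per cardiomyocyte cannot be told apart in the level of a single gene. The part of either in the ratios between genes given below was not tested.

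The light chains were among the most abundant RNAs of the tissue. In FPKM, a level per kilobase of exon that allows genes to be set beside each other, *cmlc1* stood at 6900 ± 1457 in tbx20-overexpressing and 10415 ± 1814 in control hearts (SD, n = 3 each), and *myl7* at 6858 ± 1649 and 9410 ± 1617 in the same order. Of all genes in a library, *cmlc1* ranked between 7 and 8 and *myl7* between 6 and 10. The ranges of these neighbours overlapped in both groups, so their order is not fixed. Next came *vmhc*, at 278 ± 44.5 FPKM in tbx20-overexpressing and 231 ± 83.4 FPKM in control hearts, clear of the light chains above it and of the kinases below it. The kinases overlapped with each other in both groups, *mylk2* at 59.4 ± 5.79 and 75.3 ± 5.61 FPKM and *mylk3* at 55.8 ± 13.5 and 102 ± 23.7 FPKM in tbx20-overexpressing and control hearts. The lowest was *myh6*, at 31.4 ± 2.57 FPKM in tbx20-overexpressing and 21.9 ± 15.6 FPKM in control hearts. The 6 genes together took 1.39 to 2.11% of the counts in tbx20-overexpressing and 1.89 to 2.66% in control libraries.

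**Figure D1:**
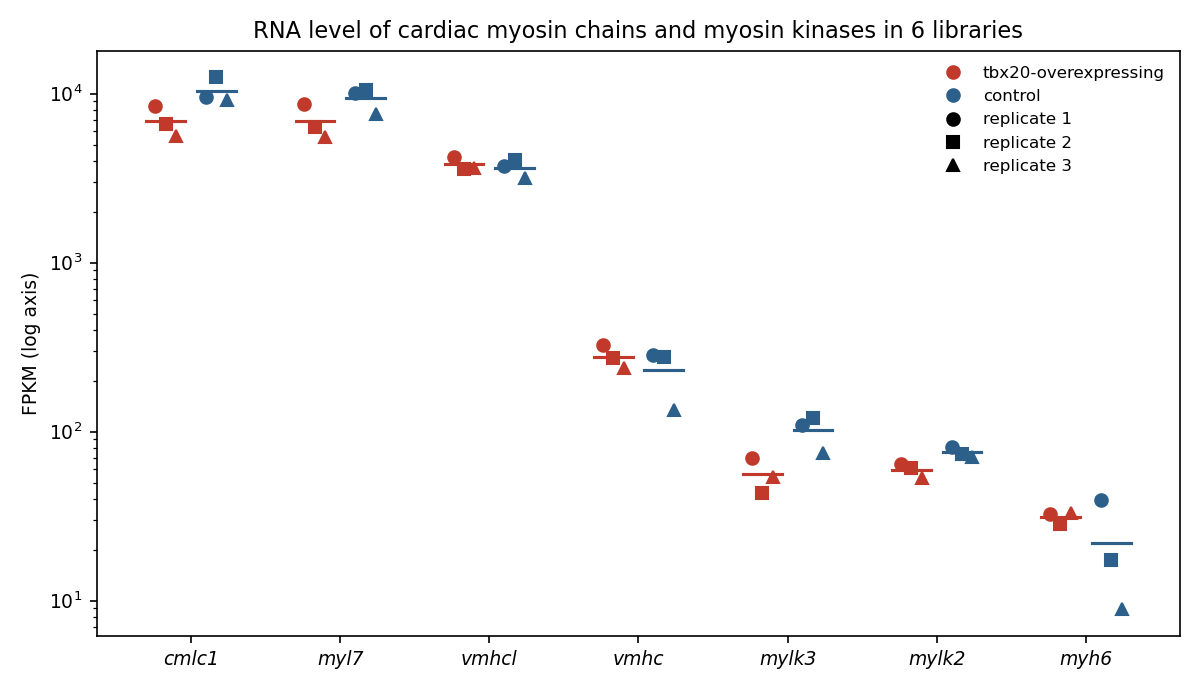
FPKM (log axis) of the 6 genes and of the further heavy chain *vmhcl* in each library, tbx20-overexpressing to the left of control for each gene, with shapes for replicate number and bars for the group mean. The light chains lie highest, *vmhc* between 135 and 326 FPKM and the kinases and *myh6* below it, and the control libraries spread most for *myh6* (8.91 to 39.3 FPKM).

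A heavy chain outside the 6 genes carried most of the ventricular heavy chain RNA. This is *vmhcl* (ENSDARG00000079782), at 3824 ± 355 FPKM in tbx20-overexpressing and 3648 ± 467 FPKM in control hearts (SD, n = 3 each), which is 13.9 and 17.1 times the level of *vmhc* as the mean of the within-library ratios. RefSeq's GRCz12tu annotation, where *vmhc* is named *myh7* and *vmhcl* is named *myh7l*, places them side by side with 0 protein-coding genes starting between them. How reads shared by such copies were counted is not given in the sources used here, so the split between *vmhc* and *vmhcl* is uncertain and their sum is given below as well. Of the FPKM of 5 heart heavy chains (*vmhcl*, *vmhc*, *myh6*, *myh7ba* and *myh7bb*), *vmhcl* held 89.7 ± 0.34% in tbx20-overexpressing and 90.6 ± 1.51% in control hearts, *vmhc* 6.51 ± 0.59% and 5.61 ± 1.52%, and *myh6* 0.74 ± 0.06% and 0.53 ± 0.36%. None of these shares differed beyond the spread (two-sided exact permutation tests, p = 0.4 for *vmhcl*, 0.5 for *vmhc* and 0.4 for *myh6*, where 0.1 is the smallest that 3 against 3 libraries allow).

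Both light chains and both kinases had lower levels in tbx20-overexpressing hearts in 3 of 3 replicate pairs, while *vmhc* and *myh6* were each lower in 1 of 3. The share of all genes lower in 3 of 3 pairs was not counted. A gene was called where the unadjusted p was under 0.05 and the log2 difference beyond 0.5 in size. These thresholds are those of the study's results text, whereas its methods name a Benjamini-Hochberg adjusted p. By edgeR's quasi-likelihood test, 3 of the 6 genes were called lower (*cmlc1*, *mylk2* and *mylk3*) and 0 higher. Of all 15686 genes tested, 5.56% were called lower and 3.27% higher by that rule. The 6 genes were chosen with these results known, so that the count describes them and is no test of the group. After Benjamini-Hochberg adjustment over all genes, 0 of the 15686 passed 0.05 in edgeR, where 1448 (9.23%) had an unadjusted p under 0.05. The paired fit, in which the replicate number enters as a block, called *myl7* in addition, and 0 of the 6 passed an adjusted p of 0.05, as 0.536% of all genes did. In that fit 8.06% of all genes were lower and 6.05% higher by the same rule.

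Of the light chains, *cmlc1* was at 6613, 4893 and 3422 CPM in tbx20-overexpressing and at 8241, 13312 and 7298 CPM in control libraries (replicates 1, 2 and 3). Every tbx20-overexpressing library lay below every control library, as was the case for 8.27% of all genes tested, while 6.45% had every tbx20-overexpressing library above every control library. In CPM and in FPKM alike, the 3 genes whose groups did not overlap were *cmlc1*, *mylk2* and *mylk3*, all lower, against 2.95% lower and 19.7% higher without overlap among all genes in FPKM. edgeR put the log2 fold change at -0.95 ± 0.36 (SE here and below), with an adjusted p of 0.460 that lay between 0.121 and 0.785 over the alternatives, and a two-sided exact permutation test gave p = 0.1. The call was lost when tbx20-overexpressing replicate 2 (-0.94), tbx20-overexpressing replicate 3 (-0.74) or control replicate 2 (-0.65) was left out.

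For *myl7* the values were 11395, 7902 and 5654 CPM in tbx20-overexpressing and 14741, 18857 and 10037 CPM in control libraries. The groups overlapped, because tbx20-overexpressing replicate 1 stood above control replicate 3. The log2 fold change of -0.81 ± 0.37 did not pass the rule (adjusted p of 0.583 in edgeR, and 0.142 to 0.868 over the alternatives), and the exact permutation p was 0.2. With the replicate block it passed, at -0.82 ± 0.24 and an adjusted p of 0.142 in edgeR. It also passed when tbx20-overexpressing replicate 1 (-1.10) or control replicate 3 (-1.01) was left out.

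Of the 6 genes *mylk3* had the largest fold change in this fit. It was counted at 275, 161 and 166 CPM in tbx20-overexpressing and at 477, 647 and 299 CPM in control libraries, with no overlap, and control replicate 3 was the nearest to the other group. Its log2 fold change was -1.24 ± 0.34 with an exact permutation p of 0.1, and edgeR's adjusted p was 0.332 (0.0346 to 0.676 over the alternatives). In each of the 16 alternatives, 6 of them without 1 library, the gene was called lower. The value of 0.0346 came from DESeq2, which called 1.52% of all genes at an adjusted p under 0.05. By pair the log2 differences were -0.79, -2.003 and -0.85, so the pair of replicate 2 differed most. The tbx20-overexpressing library of that pair had the least *tbx20* of its group, at 19.0 CPM against 133 and 37.2 CPM. Whether the level of *mylk3* follows that of *tbx20* was not tested.

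Its relative *mylk2* was at 240, 218 and 155 CPM in tbx20-overexpressing and at 339, 376 and 269 CPM in control libraries, again with no overlap. The differences were even over the pairs, at -0.50, -0.79 and -0.79 on the log2 scale. The fit gave a log2 fold change of -0.68 ± 0.24, an adjusted p of 0.422 in edgeR (0.0861 to 0.758 over the alternatives) and an exact permutation p of 0.1. The call was lost when tbx20-overexpressing replicate 3 (-0.52), control replicate 1 (-0.65) or control replicate 2 (-0.59) was left out.

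The ventricular chain *vmhc* was at 1913, 1512 and 1091 CPM in tbx20-overexpressing and at 1841, 2207 and 800 CPM in control libraries. The lowest and the highest of these values both came from control libraries. The log2 fold change was -0.10 ± 0.39 (edgeR, adjusted p = 0.984), and its sign turned when tbx20-overexpressing replicate 3 (0.09), control replicate 1 (0.01) or control replicate 2 (0.17) was left out. With *vmhcl* added to it the value was -0.29. On its own, *vmhcl* was at 27982, 22575 and 18819 CPM in tbx20-overexpressing and at 27290, 36794 and 21115 CPM in control libraries, with overlap and a log2 fold change of -0.30 ± 0.34 (edgeR, adjusted p = 0.897).

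The atrial chain *myh6* was the least even. It was at 190, 157 and 150 CPM in tbx20-overexpressing libraries, and at 254, 139 and 52.5 CPM in control libraries. Control libraries thus held the highest and the lowest values, and differed from each other more than the groups did. The log2 fold change was 0.16 ± 0.47 (edgeR, adjusted p = 0.976), and the exact permutation p was 0.7. Leaving out control replicate 1 gave 0.80, and leaving out control replicate 3 gave -0.25. Of the other atrial markers, *smtnl1* and *nr2f1a*, 0 of 2 were called, and *smtnl1* was called higher with the replicate block. Under total-count scaling 2 of 2 were called higher, as were 1843 of all 15686 genes, with 257 lower. The summed FPKM of these 2 markers was 11.5 to 19.4 in tbx20-overexpressing and 6.22 to 9.52 in control libraries. Their median relative to the median gene was 0.63 under TMM and under total-count scaling. The part of atrial tissue in the level of *myh6* was not tested.

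**Figure D2:**
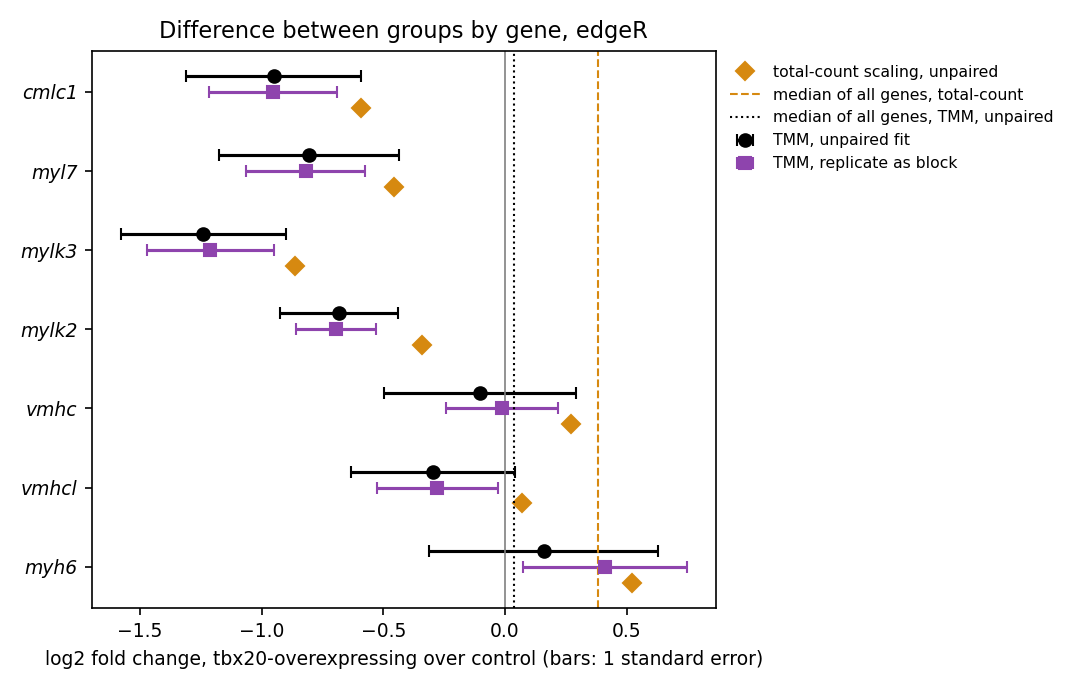
Log2 fold change (tbx20-overexpressing over control) of the 6 genes and *vmhcl* in edgeR, as circles for TMM scaling, squares with the replicate number as a block (bars, 1 standard error) and diamonds for total-count scaling. The vertical lines mark the median of all genes, at 0.04 under TMM and 0.38 under total-count scaling; *cmlc1*, *myl7* and both kinases lie left of either line by 0.72 or more.

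The scaling of the libraries moved all of these values together. Under total-count scaling the median gene had a log2 fold change of 0.38 in place of 0.04, a shift of 0.35, and the split of all calls was 1843 higher and 257 lower in place of 513 higher and 872 lower. Relative to the median gene, *mylk3* was at -1.27 under TMM and -1.25 under total-count scaling, *cmlc1* at -0.99 and -0.97, *myl7* at -0.84 and -0.84, and *mylk2* at -0.72 and -0.72. On the same footing *vmhc* was at -0.14 and -0.11 and *myh6* at 0.12 and 0.14. Without that reference *vmhc* changed sign, to 0.27, and *mylk2* (-0.34) was no longer called.

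Ratios within a library do not depend on its scaling, and were used to compare heavy with light chains and light chains with their kinases. In all, 20 ratios were formed, 12 of them planned and 8 added once the level of *vmhcl* had been seen, each tested with a two-sided exact permutation test on log2 ratios of FPKM whose smallest p is 0.1, so that none could pass 0.05, adjusted or not.

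Ventricular heavy chain RNA was higher relative to *myl7* RNA in every tbx20-overexpressing library than in any control library. The ratio of *vmhc* to *myl7* was 0.037, 0.043 and 0.043 in tbx20-overexpressing and 0.028, 0.026 and 0.018 in control libraries (replicates 1, 2 and 3), a log2 difference of 0.80 (standard error 0.21, exact permutation p = 0.1). That of *vmhcl* to *myl7* was 0.49, 0.57 and 0.66 in tbx20-overexpressing and 0.37, 0.39 and 0.42 in control libraries, a difference of 0.54 (standard error 0.14, exact p = 0.1), and with both ventricular chains summed it was 0.55 (standard error 0.13, exact p = 0.1). In these ratios the groups did not overlap, and the difference was positive in 3 of 3 pairs. Relative to the median gene under TMM, *myl7* was at -0.84, *vmhc* at -0.14 and *vmhcl* at -0.33. The heavy chains thus did not lie above the median gene, and *myl7* lay furthest below it. The share of all genes whose ratio to *myl7* separates the groups was not computed.

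The essential light chain gave the same picture against the main heavy chain. The ratio of *cmlc1* to *vmhcl* was 2.003, 1.84 and 1.54 in tbx20-overexpressing and 2.56, 3.07 and 2.93 in control libraries, a log2 difference of -0.67 (standard error 0.14, exact permutation p = 0.1). How many of all genes separate the groups in their ratio to *vmhcl* was not computed. The light chains kept closer to each other, as *myl7* to *cmlc1* was 1.03, 0.96 and 0.98 in tbx20-overexpressing and 1.06, 0.84 and 0.82 in control libraries. Their difference of 0.13 (standard error 0.12, exact p = 0.4) was within the spread.

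The atrial to ventricular ratio, *myh6* to *vmhc*, was 0.1003, 0.105 and 0.139 in tbx20-overexpressing and 0.139, 0.064 and 0.066 in control libraries. The groups overlapped, with a log2 difference of 0.44 (standard error 0.40, exact permutation p = 0.4) that was positive in 2 of 3 pairs. It was 0.80 without control replicate 1, 0.24 without control replicate 2, 0.27 without control replicate 3 and 0.29 without tbx20-overexpressing replicate 3. Set against *vmhcl* instead, *myh6* gave a difference of 0.70 (standard error 0.57, exact p = 0.4).

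Of the kinases, *mylk3* had less RNA relative to *myl7*, the regulatory light chain, in every tbx20-overexpressing library than in any control library. Per 100 FPKM of *myl7* there were 0.81, 0.68 and 0.98 FPKM of *mylk3* in tbx20-overexpressing and 1.08, 1.14 and 0.99 FPKM in control libraries, a log2 difference of -0.40 (standard error 0.16, exact permutation p = 0.1). The groups met almost at the same value in replicate 3, where the pair differed by -0.02. How many of all genes separate the groups in their ratio to *myl7* was not computed. For *mylk2* the values were 0.74, 0.96 and 0.96 FPKM in tbx20-overexpressing and 0.81, 0.70 and 0.94 FPKM in control libraries, and the difference of 0.12 (standard error 0.18, exact p = 0.5) was smaller than its error. The ratio of *mylk3* to *mylk2* was 1.09, 0.71 and 1.02 in tbx20-overexpressing and 1.34, 1.64 and 1.06 in control libraries. It was lower in 3 of 3 pairs, by -0.52 on the log2 scale (standard error 0.27, exact p = 0.2), but the groups overlapped.

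**Figure D3:**
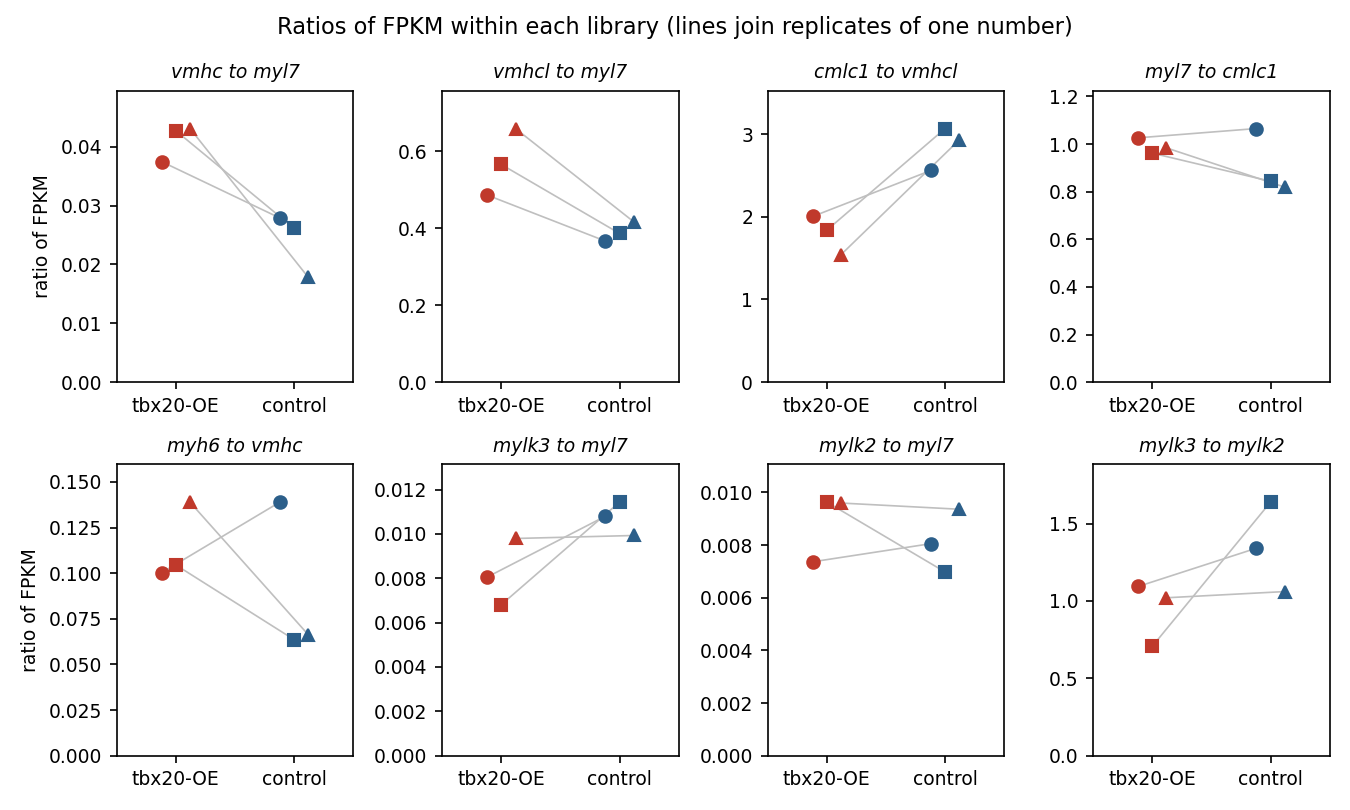
Ratios of FPKM within each library for 8 pairs of genes, tbx20-overexpressing at the left of each panel and control at the right, with circles, squares and triangles for replicates 1, 2 and 3 and grey lines joining replicates of one number. Both heavy to light chain ratios lie higher in every tbx20-overexpressing library (*vmhcl* to *myl7*, 0.49 to 0.66 against 0.37 to 0.42), while *myh6* to *vmhc* and *mylk2* to *myl7* overlap.

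The level of the other cardiomyocyte genes is given beside these results. Of 10 cardiomyocyte markers without myosin genes, 10 had a log2 fold change below 0 under TMM scaling (median -0.53, against 0.04 over all genes, of which 45.7% lay below 0) and 9 under total-count scaling (median -0.19, against 0.38), and 10 lay below the median gene under either. Under TMM 3 were called lower, the cardiac actin *actc1a* (-1.02), the tropomyosin *tpm4a* (-0.82) and the calcium pump *atp2a2a* (-0.66). Under total-count scaling 1 was called lower, as were 257 of all 15686 genes. With the replicate block *tnnt2a* and *tnni1b*, both troponin genes, were called lower in addition. The natriuretic peptide gene *nppa* was at -0.05 ± 0.34 under TMM. In FPKM, which is scaled to the library total, it averaged 3115 and 2641 in tbx20-overexpressing and control hearts. The summed FPKM of the 10 was 15157 to 20954 in tbx20-overexpressing and 20256 to 24959 in control libraries, and none of them was at 0. Set against that sum, *myl7* differed by -0.12 (standard error 0.19, exact permutation p = 0.6), *cmlc1* by -0.26 (0.10, p = 0.2), *mylk2* by 0.0021 (0.15, p = 1) and *mylk3* by -0.52 (0.28, p = 0.3) on the log2 scale, with overlap in each of these 4. With the mean log2 FPKM of the markers as reference, *cmlc1* differed by -0.40 and *mylk3* by -0.66 (exact permutation p = 0.1 each). There *myl7* was at -0.27 (exact p = 0.3) and *mylk2* at -0.14 (exact p = 0.4). Without *nppa* in the sum, *cmlc1* was at -0.16 (exact p = 0.2) and *mylk3* at -0.43 (exact p = 0.3). The heavy chain *vmhc* was higher against the sum of all 10 in 3 of 3 pairs, by 0.68 (standard error 0.37, exact permutation p = 0.1), and so was *vmhcl*, by 0.42 (0.15, p = 0.1), both without overlap. The value for *vmhc* was 0.32 without control replicate 3 and at most 0.95 without any other library. For *myh6* the difference was 1.12 (standard error 0.69, exact permutation p = 0.3), and it was 0.59 without control replicate 3 and 1.75 without control replicate 1. Relative to the median gene under TMM, the markers had a median of -0.57, against -0.14 for *vmhc* and -0.33 for *vmhcl*. A gene at the median would thus also lie higher against the markers. The share of all genes that do so was not computed.

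Markers of other cells are given for comparison. FPKM is scaled to the library total, under which the median gene was at 0.38, against 0.04 under TMM. Under total-count scaling 1843 of all 15686 genes were called higher and 257 lower. Relative to the median gene, the epicardial and fibroblast list was at 0.46 under TMM and 0.47 under total-count scaling. On that footing the macrophage list was at 0.48 and 0.53, and the endothelial list at -0.25 and -0.26. The 7 markers of epicardium and fibroblasts all lay above 0 under TMM (median 0.49) and under total-count scaling (median 0.85), with 2 called higher under TMM, *tcf21* (0.50) and *wt1b* (0.66), and 6 under total-count scaling (with the replicate block *postnb* was called and *tcf21* was not), and their summed FPKM was 970 to 1933 in tbx20-overexpressing and 658 to 946 in control libraries. Of 5 macrophage markers 5 lay above 0 (median 0.51, *spi1b* called higher at 0.62, 2 called higher under total-count scaling, and *csf1ra* called in addition with the replicate block), with sums of 116 to 289 and 80.5 to 124 FPKM in the same order. Of 6 endothelial markers 4 lay below 0 under TMM and 3 under total-count scaling, with *cdh5* (-0.51) and *pecam1* (-0.50) called lower under TMM and 0 under total-count scaling, and sums of 161 to 204 and 129 to 203 FPKM in tbx20-overexpressing and control libraries. None of the 3 neutrophil rows (sums of 4.16 to 26.1 and 3.60 to 23.3 FPKM) or 5 erythrocyte rows (425 to 3096 and 965 to 1284 FPKM) was called, the sums again being those of tbx20-overexpressing and control libraries. Of the smooth muscle markers, 1 of 3, *acta2* (1.64), was called higher, and *tagln* (0.13) and *cnn1b* (0.29) were not called. The sums were 417 to 1229 FPKM in tbx20-overexpressing and 267 to 593 FPKM in control libraries. The study also reports smooth muscle actin in cardiomyocytes of injured tbx20-overexpressing hearts, and treats it as a marker of their dedifferentiation. In this tissue *acta2* is thus not a marker of smooth muscle alone. Likewise, *aldh1a2* (0.48), listed here with epicardium and fibroblasts, serves in the study as a marker of activated endocardium. Of the skeletal muscle list 1 of 6 tested genes, the muscle creatine kinase *ckma* (-1.42), was called lower (and *tnnt3b* higher with the replicate block), at 963 and 2034 FPKM on average in tbx20-overexpressing and control hearts, while the fast skeletal genes *mylpfa* and *myhz2* averaged at most 1.60 FPKM in both. The part of these cell types in the levels of the 6 genes was not tested.

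Genes that share the work of these 6 were followed by role, in lists of 69 symbols of which 46 rows had enough counts to be tested. Of these, 5 were called lower and 2 higher (8.83% of all genes were called in either direction), 23 lay below 0 (9 under total-count scaling), and the median log2 fold change was 0.0025, against 0.04 over all genes. With the replicate block 11 were called, where 8.06% of all genes were lower and 6.05% higher by the same rule. Under total-count scaling 3 were called lower and 9 higher, beside 257 lower and 1843 higher of all 15686 genes. The calls in the next paragraphs are those under TMM without the block. The lists were drawn up with earlier results of these data known.

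Of the other kinases 1 of 4 tested was called, *mylk4b*, a further member of the light chain kinase family. It averaged 15.9 FPKM in tbx20-overexpressing hearts and 29.6 FPKM in control hearts. Its log2 fold change under TMM was -1.29 ± 0.30 (adjusted p of 0.276 in edgeR), on another scale than FPKM, which is scaled to the library total. Calmodulin activates members of this kinase family, and myosin phosphatase opposes them. The dependence of *mylk4b* on calmodulin was not examined here. None of 6 calmodulin rows was called, with values from -0.34 to 0.66 and the most abundant, *calm2b*, at -0.10, and none of 5 phosphatase rows, with values from -0.19 to 0.36 and *ppp1cb*, the most abundant, at -0.11.

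Under TMM, proteins that bind the thick filament had the most calls of the role lists. Of 7 tested, 3 were called lower, *mybpc3* (-0.60), the cardiac myosin-binding protein C, and the M-band proteins *myom1b* (-1.01) and *myom1a* (-0.76), and 1 was called higher, the fast skeletal isoform *mybpc2b* (1.44), whose mean was only 1.11 FPKM in tbx20-overexpressing and 0.33 FPKM in control hearts. Of all genes 5.56% were called lower and 3.27% higher under TMM. Under total-count scaling 1 of these 7 proteins was called lower and 1 higher, while 2 of 6 calmodulin rows were called higher. That scaling called 1843 of all 15686 genes higher and 257 lower. Among 6 genes listed as myosin folding and assembly factors the only call under TMM was *asb2b*, lower at -1.35. The study counts *asb2b* among sarcomere assembling factors, and its action on myosin itself was not examined here. In the same list *smyd1b*, a methyltransferase needed for thick filament assembly and the most abundant of the list, was at -0.55 ± 0.27 and not called.

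Among other chains the only call was *myh11b*, a smooth muscle type heavy chain at 0.31 FPKM on average in tbx20-overexpressing and 0.11 FPKM in control hearts (log2 fold change under TMM 1.21). The nonmuscle heavy chain *myh9b*, the most abundant of its role, was at 0.33 and not called. Of the other light chains 0 of 7 were called. The most abundant, *myl9a*, a smooth muscle type regulatory chain, was at 580 and 766 FPKM on average in tbx20-overexpressing and control hearts (log2 fold change under TMM -0.76 ± 0.53), and was called with the replicate block. Of the fast skeletal heavy chains, 2 of 8 rows had enough counts and 0 were called, and the most abundant, *myhz2*, averaged 0.30 and 0.26 FPKM in tbx20-overexpressing and control hearts.

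**Figure D4:**
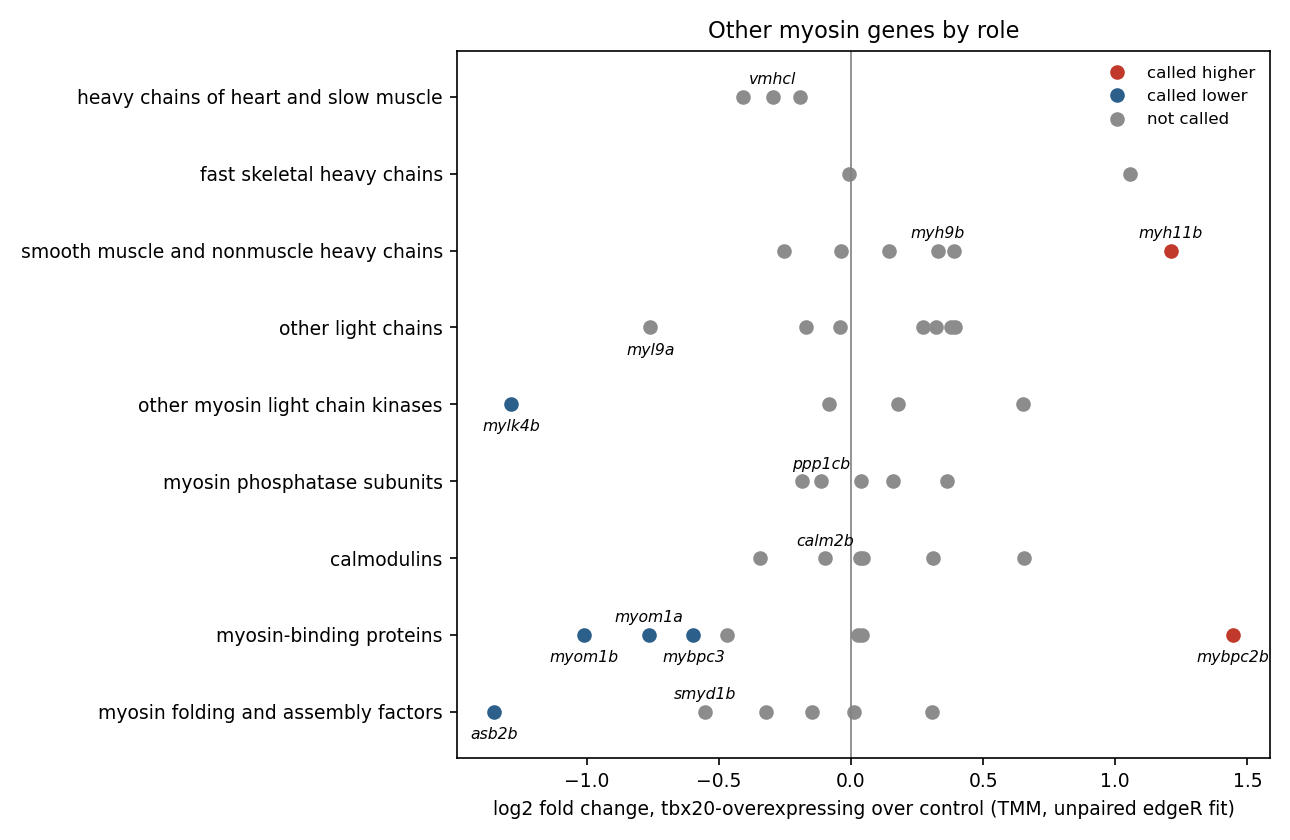
Log2 fold change (tbx20-overexpressing over control, TMM, unpaired edgeR fit) of the 46 tested genes of the other myosin roles, 1 row per role and 1 point per gene, with called genes in colour. The 5 genes called lower are *mylk4b*, *mybpc3*, *myom1a*, *myom1b* and *asb2b*, and the 2 called higher, *myh11b* and *mybpc2b*, have mean levels of at most 1.11 FPKM in either group.

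Across the 6 libraries the light chains and kinases were closely alike, and *myh6* was the least like them. As a description over 6 libraries that share their scaling and their group difference, Pearson's r of log2 CPM was 0.97 between *myl7* and *cmlc1*, 0.97 between *myl7* and *mylk2* and 0.95 between *myl7* and *mylk3*, and 0.92 between *myl7* and *vmhcl*, against 0.65 between *myl7* and *vmhc* and 0.17 between *myl7* and *myh6*. The 3 genes most like each member were *mt-cyb* (r = 0.99), *cox7a3* and *hspb2* for *myl7*, *atp5g1* (0.999), *slc25a12* and *cox10* for *cmlc1*, *ndufa3* (0.9996), *mt-nd3* and *cav2* for *mylk2*, and *cmc2* (0.998), *CABZ01061884.1* and *irs1* for *mylk3*. For *vmhc* they were *zgc:154075* (0.997), *si:ch211-232b12.5* and *oxct1a*, and for *myh6* they were *rpe65c* (0.98), *ccdc146* and *UBE2O*. They were picked as the highest of 15686 genes over 6 libraries, and are given with no test.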

How the data were processed

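The table holds whole-number counts and FPKM values per gene for 6 libraries. Per the labels, the authors trimmed reads with Trimmomatic 0.30 and aligned them with HISAT2 2.0.1 to GRCz10. The counter and its handling of strand and shared reads are not given in the sources used here. The deposited counts carry no normalization. The authors' FPKM values equal the counts divided by exonic length and library total in 190206 of 190206 cases (within the rounding of the deposited values).

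Counts were tested in R 4.3.3 with edgeR 4.0.16 (filterByExpr, TMM, quasi-likelihood F test, two-sided) over all genes, and p-values adjusted over all of them. Standard errors are the log2 fold change over the square root of F. Single values and log2 ratios of FPKM were tested by exact permutation of 3 against 3 libraries. The standard error of a ratio difference is that of a difference of means. Alternatives used DESeq2 1.42.0, limma 3.58.1 on log2(FPKM + 1) and log2(FPKM + 0.1), other scalings and filters, a replicate block and each library left out. Upper-quartile factors, TMM factors without the mitochondrial and 20 most counted genes, the sum of *vmhc* and *vmhcl*, and 8 ratios, most of them with *vmhcl*, were added after seeing the data. The fits were tested on simulated data.

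The replicate numbers were taken to pair the libraries, since deviations from the group means correlated at 0.48, 0.42 and 0.54 for like numbers (across genes, which are not independent). For unlike numbers the correlations lay between -0.39 and -0.14. The labels do not state a pairing, so it rests on the numbers and on these same data. No libraries of a group were duplicates (chi-square per degree of freedom of 44.8 or more).

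By rule the named genes were the 6 members, each called gene and the most abundant gene of each role list, the 3 most like genes per member and *tbx20*. The heavy chains beside *vmhc* and *myh6* and the genes named from marker lists were chosen after their values were seen. Members and lists were chosen with earlier results of these data known.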

Additional observations from a re-analysis of the deposited data

How the results depend on the processing

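Over 6 members and their alternatives, *mylk3* was called lower in 16 of 16, *cmlc1* in 12, *mylk2* in 10 and *myl7*, not called in the unpaired fit, in 4. The count of members called, 3, was 1 with limma on log2(FPKM + 0.1) and 1 to 4 without 1 library. Leaving out tbx20-overexpressing replicate 3 or control replicate 2 gave 1. The sign of *vmhc* (-0.10) turned under total-count scaling (0.27), limma on log2(FPKM + 1) (0.33) and log2(FPKM + 0.1) (0.34), and it ranged from -0.42 to 0.17 without 1 library, as *myh6* did from -0.25 to 0.80. Of the 12 planned ratios, 6 of 112 values turned, all of them ratios to the cardiomyocyte markers near 0. These were *myl7* to cardiomyocyte markers (-0.28 to 0.018 without 1 library, the positive value without control replicate 1) and *mylk2* to cardiomyocyte markers (-0.084 to 0.14 without 1 library, and -0.14 with the mean log2 FPKM of the markers). Without 1 library other ratios ranged from 0.063 to 0.25 (*myl7* to *cmlc1*), 0.019 to 0.25 (*mylk2* to *myl7*), -0.68 to -0.33 (*mylk3* to *mylk2*, the smallest without tbx20-overexpressing replicate 2), -0.53 to -0.27 (*mylk3* to *myl7*, the smallest without tbx20-overexpressing replicate 2) and 0.60 to 0.93 (*vmhc* to *myl7*). Pairing the libraries left each mean ratio difference as it was, by construction, so the paired values among the 112 could not turn. The replicate block called 2213 genes in place of 1385, and total-count scaling 2100, with 1097 to 1568 without 1 library. Other myosin genes called, 7, were 12 under total-count scaling, 11 with the replicate block and 3 to 8 without 1 library (3 without tbx20-overexpressing replicate 3 or control replicate 1, 4 without control replicate 3). Genes past an adjusted p, 0 in the unpaired fit, were 84 with the block, 239 with DESeq2, 32 without a filter, 9 with limma on log2(FPKM + 0.1) and 0 to 2 without 1 library. The cause of these changes was not tested. With 3 libraries a group, exact tests cannot go below 0.1.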
